A study of Mus musculus with 18 samples.

Results

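SR proteins and heterogeneous nuclear ribonucleoproteins (hnRNPs) are the main RNA-binding regulators of pre-mRNA splicing. Their mRNAs were followed here in NIH3T3 cells, a mouse embryonic fibroblast line, under heat shock (HS) and under tunicamycin. The genes were taken by name: every gene of the deposited tables whose symbol starts with Srsf, Sfrs or Hnrnp in all 18 libraries. This gave 36 of 20207 genes, 18 with an Sfrs symbol and 18 with an Hnrnp symbol. The tables use the older Sfrs names, and 0 genes carry an Srsf symbol. By family, 9 of the Sfrs genes are SR proteins (Sfrs1 to Sfrs7, Sfrs9 and Sfrs11), and the other 9 encode SR-related proteins that were once numbered with them. All 36 had at least 1 read in every library.

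The cells expressed a destabilizing domain fused to superfolder GFP (DD-GFP), and all 18 cultures kept the ligand S1, which holds the domain folded. The control cultures were at 37°C without tunicamycin and were labelled 0 min. HS was at 42°C for 45 or 135 min. Tunicamycin, given by the study as 5 µM, was added for 45, 135 or 405 min. Each of the 6 groups had 3 libraries. The labels name 1 line and do not say whether the libraries of a group came from separate cultures, so the p-values below measure the spread between these libraries, which may be technical. The study's group comparisons ask how each stress changes transcript levels relative to unperturbed cells.

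SR proteins carry an RNA recognition motif and a domain rich in arginine and serine. They bind exonic enhancers and recruit the spliceosome, and their activity and place in the nucleus depend on phosphorylation by the SRPK and CLK kinases. hnRNPs coat nascent transcripts, often act against exon inclusion, and several of them also bind mRNAs in the cytoplasm to set stability and translation. Many genes of both families control their own mRNA level through alternative exons that lead to decay of the transcript. Heat is known to change splicing widely, and tunicamycin blocks N-glycosylation, so that unfolded proteins collect in the endoplasmic reticulum.

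The libraries held 33415592 to 66478268 reads on genes, and 3 reads corresponded to 0.0451 to 0.0898 CPM (counts scaled to the size of the library). The 36 genes took 0.719% to 1.022% of these reads. The stress labels were checked first. Hspa1b, a heat-induced chaperone, had 5.47 to 6.3 CPM in the controls. Its replicates 1 to 3 had 280, 223 and 46 CPM at 45 min of HS and 263, 1142 and 1214 CPM at 135 min. Hspa5, the chaperone of the endoplasmic reticulum, had 656 to 735 CPM in the controls and 8805 to 9292 CPM at 405 min of tunicamycin. At 45 min of tunicamycin it had 923 to 955 CPM, and at 135 min 333 to 491 CPM, below every control. At 135 min of HS it had 1269 to 1416 CPM. Ddit3, the other gene of this check, had a mean of 71.9 CPM in the controls. Its means under tunicamycin were 542, 208 and 2630 CPM at 45, 135 and 405 min. Under HS they were 188 and 360 CPM at 45 and 135 min. So these genes did not mark the 135 min tunicamycin group as they did the 405 min group. Of the 8 fibroblast markers fixed for the line, all 8 passed the filter on low counts, and 6 of them (Col1a1, Col1a2, Col3a1, Vim, S100a4 and Pdgfrb) fell at 405 min of tunicamycin. Of 10 markers of other cell types only 4 did, with Cd68 and Tubb3 the highest at 6.96 and 5.84 CPM in the controls. Tubb3, a neuronal tubulin, was the only one of the 4 called in a comparison with the control. It rose at 405 min of tunicamycin, to 23.4, 25.2 and 23.9 CPM (log2 fold change 2.07, adjusted p = 7.05e-05, edgeR), and its part in the results at that time was not tested. Some libraries stood apart. A single axis took 74.7% of the differences between libraries of a group, and its gene weights followed transcript GC content (Spearman's rho = 0.69 over genes). HS 45 min replicate 3 (−0.505), HS 135 min replicate 2 (0.455) and HS 135 min replicate 1 (−0.374) were farthest out on it. Control replicate 1 also differed from its partners at several of the genes described here. In bulk RNA, less of an mRNA per cell and fewer cells carrying it cannot be told apart.

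The promoters of the 3 genes called in the heat comparisons are shown here, because these members carry the heat results below. Each window runs from 250 bases before to 50 bases after the annotated start, as 300 bases 5′ to 3′ from RefSeq on GRCm38.p6, and a window was found for 34 of the 36 genes. Capitals mark CpG.
Srsf5 (chr12:80945249-80945548, plus strand): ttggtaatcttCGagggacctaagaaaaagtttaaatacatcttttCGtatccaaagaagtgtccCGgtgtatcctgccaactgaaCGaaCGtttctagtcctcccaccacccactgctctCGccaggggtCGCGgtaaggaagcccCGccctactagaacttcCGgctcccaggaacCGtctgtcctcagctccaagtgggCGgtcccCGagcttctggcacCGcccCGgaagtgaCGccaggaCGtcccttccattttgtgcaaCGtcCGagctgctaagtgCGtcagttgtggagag
Srsf6 (chr2:162931258-162931557, plus strand): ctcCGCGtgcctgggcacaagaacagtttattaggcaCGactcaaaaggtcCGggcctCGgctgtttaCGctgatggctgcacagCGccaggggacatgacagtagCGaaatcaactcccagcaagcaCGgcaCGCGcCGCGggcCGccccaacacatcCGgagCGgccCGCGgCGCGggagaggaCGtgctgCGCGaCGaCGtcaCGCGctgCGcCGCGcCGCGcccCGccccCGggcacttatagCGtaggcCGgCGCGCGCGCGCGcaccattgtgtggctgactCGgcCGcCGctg
Hnrnpa0 (chr13:58128507-58128806, minus strand): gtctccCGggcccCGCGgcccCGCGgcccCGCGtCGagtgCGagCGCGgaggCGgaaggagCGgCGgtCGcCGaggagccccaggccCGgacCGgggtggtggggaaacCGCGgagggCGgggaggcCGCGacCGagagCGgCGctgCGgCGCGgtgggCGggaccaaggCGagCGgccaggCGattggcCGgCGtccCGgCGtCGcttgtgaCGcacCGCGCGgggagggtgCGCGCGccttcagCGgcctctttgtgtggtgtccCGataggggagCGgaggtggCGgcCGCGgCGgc
These windows hold 20, 45 and 52 CpG dinucleotides. The median over the 49 windows of the 34 genes was 28, with a range of 7 to 52, against 7 over all 32851 windows of the table. All windows were taken whether or not their gene was expressed here, while every member had reads in every library. The sets are therefore unlike, and no trait of these families can be read from the difference. The core of the heat shock element, GAANNTTC, which reads the same on both strands, was found in none of these 3 windows.

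Of the 34 genes, 4 (11.8%) had the core in a window, against 9.04% of 27025 genes in the table. They were Srsf9, Hnrnpa2b1, Hnrnpf and Hnrnpl. In Hnrnpa2b1 the core is followed 2 bases on by a further GAA, giving the 3-unit form that 0.603% of all windows hold. The stretches around the core in Srsf9 and Hnrnpa2b1 are shown with that of the heat shock gene Hspa1b for comparison, with the core in capitals.
Srsf9 (chr5:115327000-115327039, plus strand): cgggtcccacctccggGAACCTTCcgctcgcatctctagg
Hnrnpa2b1 (chr6:51469860-51469899, minus strand): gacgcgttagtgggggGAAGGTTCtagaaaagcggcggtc
Hspa1b (chr17:34959319-34959358, minus strand): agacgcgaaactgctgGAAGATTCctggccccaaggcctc
A match of letters is a description of the window and not a site of binding. Hnrnpa2b1 had 221, 484 and 464 CPM in the controls and 575, 527 and 655 CPM at 135 min of HS. The groups did not overlap, but the log2 fold change of 0.59 was not past the threshold (adjusted p = 0.243, edgeR's quasi-likelihood test). With an offset for GC content it was 1.39 and was called (adjusted p = 0.0259). Its transcript has 39.18% GC, against a median of 45.2% over the members. The other genes with the core were not called at 135 min of HS, with or without the offset. Their means in the controls and at 135 min of HS were 66.5 and 75.9 CPM for Srsf9 (Sfrs9 in the counts). For Hnrnpf they were 916 and 1051 CPM, and for Hnrnpl 409 and 372 CPM.

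Levels between genes were compared per length, as RPKM over the 3 control libraries. hnRNPs took the top of the order: Hnrnpf had 369 ± 61 RPKM (SD, n = 3), Hnrnpa3 280 ± 142 and Hnrnpul1 234 ± 145. Sfrs2 was the highest SR protein, at rank 8 with 154 ± 13.8 RPKM (SD, n = 3). Sfrs5 followed at rank 13 (84.6 ± 17.3) and Hnrnpa0 at rank 14 (72.5 ± 3.32). The lowest were Hnrnph3 with 3.65 ± 0.195 and Sfrs17b with 0.176 ± 0.069 RPKM (SD, n = 3), the latter below the median of all genes (percentile 43.8). Neighbours in the order overlapped between libraries, except after ranks 14, 30 and 35. Part of the spread was control replicate 1, where Hnrnpa3 had 444 RPKM against 184 and 212, and Hnrnpul1 401 against 135 and 166. Hnrnpa1 and Hnrnpa3 have many processed copies in the genome, and how the counting divided their reads is not stated, so their levels are uncertain.

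**Figure D1:**
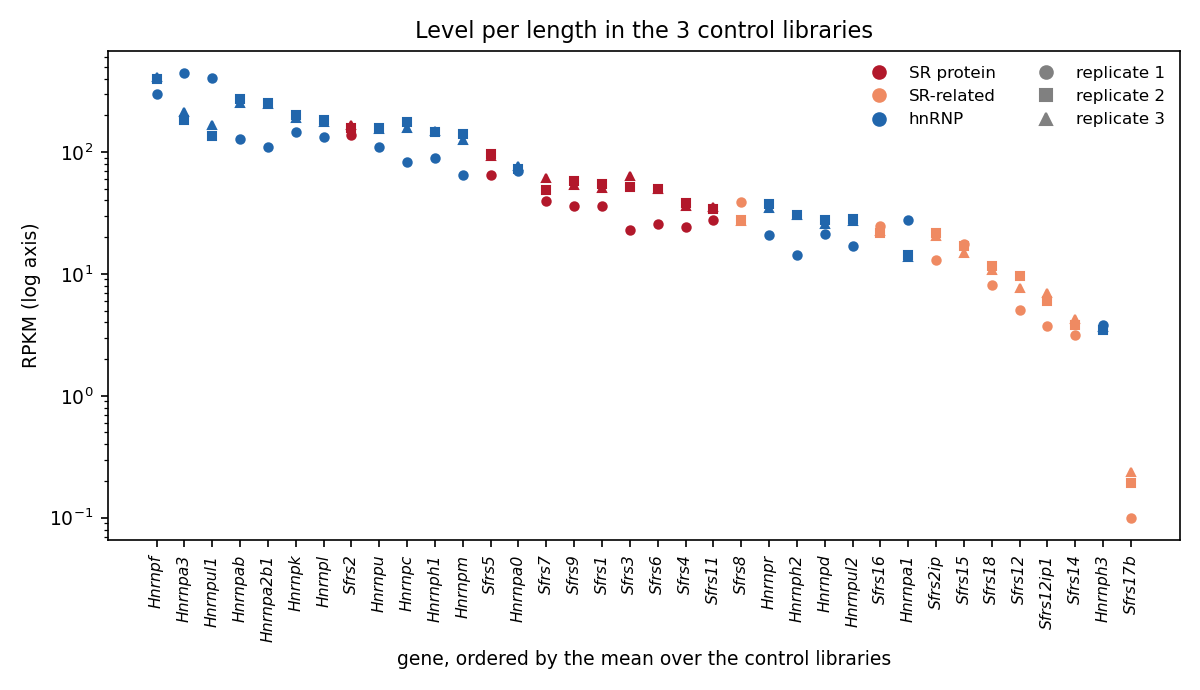
RPKM on a log axis in each of the 3 control libraries (marker shape) for the 36 genes, ordered by their mean, with SR proteins in red, SR-related genes in orange and hnRNPs in blue. Hnrnpf leads with 369 RPKM on average, Sfrs2 is the first SR protein at rank 8, and Sfrs17b stands alone at 0.176 RPKM.

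At 135 min of HS, 2 of the 36 genes were called, and both fell: Sfrs5 and Hnrnpa0. No member rose. Over all 12731 genes tested, 4.75% were called higher and 2.64% lower in this comparison, so the share of members called (2 lower, 0 higher) is to be read against those. Over the 36 genes the median log2 fold change was 0.10 and 21 were positive, against a median of −0.02 over all genes. Among the 9 SR proteins the median was −0.20 and 6 were negative. With the offset for GC content the split was different: 3 members rose (Hnrnpa2b1, Hnrnph3 and Sfrs15) and 1 fell (Hnrnpa0), where 11.8% of all genes were called higher and 7.31% lower.

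Sfrs5 (chromosome 12 of mm9, 82046491 to 82051494) encodes a small SR protein that binds exonic enhancers. It had 121, 169 and 162 CPM in the controls and 43.4, 50.9 and 47.6 CPM at 135 min of HS. All 3 heated libraries lay below all 3 controls. The log2 fold change was −1.67 (SE 0.211, adjusted p = 0.0124, edgeR), a 3.18-fold lower level. At 45 min of HS the libraries had 60.1, 65.5 and 75.4 CPM, again below every control. That log2 fold change of −1.17 (SE 0.218, edgeR) was not past the threshold (adjusted p = 0.227), but was with all 6 groups in 1 fit (adjusted p = 0.00213). Leaving out control replicate 2, control replicate 3 or HS 135 min replicate 3 took the adjusted p at 135 min to 0.0866, 0.086 and 0.104, with log2 fold changes of −1.58, −1.61 and −1.68. With an offset for GC content it was −1.09 (adjusted p = 0.0525).

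Hnrnpa0 (chromosome 13 of mm9, 58227241 to 58229917) encodes an hnRNP that binds AU-rich elements of mRNAs. Its 3 controls lay close together, at 226, 224 and 232 CPM. At 135 min of HS it had 93.3, 127 and 114 CPM, each below every control, with a log2 fold change of −1.03 (SE 0.195, adjusted p = 0.0256, edgeR). At 45 min it had 512, 699 and 239 CPM, each above every control, although replicate 3 exceeded the highest control by little. The log2 fold change at 45 min was 1.09 (adjusted p = 0.232, edgeR) with replicate 3 and 1.41 (adjusted p = 0.00201) without it. The 135 min call was lost without control replicate 2, control replicate 3 or HS 135 min replicate 3 (adjusted p = 0.129, 0.138 and 0.147) and with all 6 groups in 1 fit (0.0739).

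Sfrs6 and Hnrnpu lay just outside the threshold at 135 min of HS. Sfrs6 (chromosome 2 of mm9, 162757244 to 162762854), an SR protein with the same domain layout as Sfrs5, had 111, 204 and 202 CPM in the controls and 100, 63.2 and 76.8 CPM at 135 min. The 3 heated libraries lay below the 3 controls, with a log2 fold change of −1.11 (SE 0.297, adjusted p = 0.0594, edgeR). Without control replicate 1 it was −1.33 (adjusted p = 0.0498) and without HS 135 min replicate 1 −1.30 (adjusted p = 0.0354). Sfrs6 was not called without control replicate 2, control replicate 3, HS 135 min replicate 2 or HS 135 min replicate 3. Hnrnpu encodes a large nuclear protein that binds RNA and chromatin. It had 488, 660 and 642 CPM in the controls and 371, 281 and 327 CPM at 135 min of HS, with no overlap and a log2 fold change of −0.87 (adjusted p = 0.0526, edgeR). Without HS 135 min replicate 1 it was −0.97 (adjusted p = 0.0305). The DESeq2 Wald test called Sfrs5, Sfrs6, Hnrnpa0 and Hnrnpu lower and Hnrnpa1 higher. These 5 of 36 members are to be read against the 2133 of 12731 genes that it called.

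**Figure D2:**
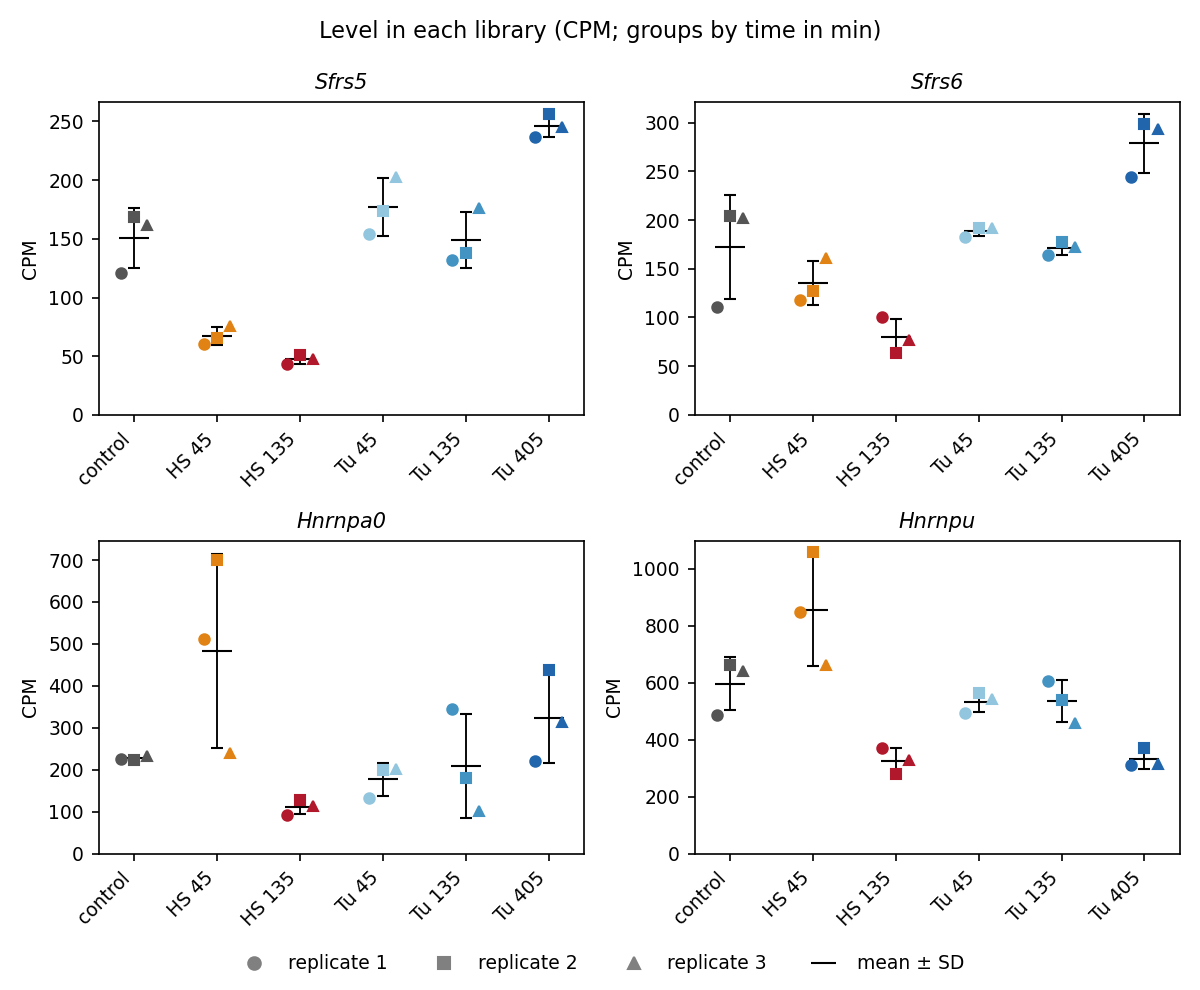
CPM (linear axis from 0) of Sfrs5, Sfrs6, Hnrnpa0 and Hnrnpu in each of the 18 libraries, by group and replicate, with the mean and SD of each group. Sfrs5 lies at 43.4 to 75.4 CPM in the 6 heated libraries against 121 to 169 CPM in the controls, and Hnrnpa0 lies above the controls at 45 min of HS and below them at 135 min.

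At 45 min of HS, edgeR called 0 of the 36 genes in either direction, where 0% of all genes were called higher and 0% lower. The heat-induced chaperone genes Hspa1b and Hsph1 were not called either, with log2 fold changes of 4.99 and 1.10. The study's own edgeR analysis reported called genes at this time. So 0 calls here do not show that levels were unchanged. Before adjustment, 4 members were higher at p under 0.05 (Hnrnpa0, Hnrnpd, Hnrnpul2 and Sfrs15) and 1 was lower (Sfrs5). Of all 12731 genes, 1568 were higher and 912 lower by the same rule. The DESeq2 Wald test called 1, Sfrs5, where it called 441 of all genes. Replicate 3 of this group decided the count. Without it, 14 members were called, 11 higher and 3 lower, where 21.5% of all genes were called higher and 23.9% lower. The 11 and 3 of 36 members are to be read against these shares.

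The 14 genes of that reduced comparison include members of all 3 classes. Among the SR proteins, Sfrs2, which binds exonic enhancers, had a log2 fold change of 0.79 (adjusted p = 0.0144, edgeR) and Sfrs4 of 0.96 (adjusted p = 0.0124), while Sfrs5 had −1.26 (adjusted p = 0.00358). Of the SR-related genes, Sfrs8, Sfrs14, Sfrs15 and Sfrs16 were higher by 0.61 to 0.99 on the log2 scale, and Sfrs12ip1 was lower. Of the hnRNPs, Hnrnpa0, Hnrnpa1, Hnrnpd, Hnrnpu and Hnrnpul2 were higher. Hnrnpc, which binds uridine tracts, was the lowest, with a log2 fold change of −2.23 (adjusted p = 0.00564). It had 139, 280 and 248 CPM in the controls and 63.7, 31.4 and 229 CPM at 45 min of HS. The third of these heated libraries lay within the range of the controls and the other two below it.

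Several members had opposite signs at 45 and 135 min of HS. Hnrnpd (AUF1), which binds AU-rich elements and promotes mRNA decay, had 176, 219 and 198 CPM in the controls. It had 375, 457 and 223 CPM at 45 min and 110, 138 and 131 CPM at 135 min. Hnrnpu had 846, 1059 and 663 CPM at 45 min against 371, 281 and 327 CPM at 135 min. In both genes, as in Hnrnpa0, the 3 libraries at 45 min lay above all 3 controls and the 3 at 135 min below them. Replicate 3 at 45 min exceeded the highest control by little, at 223 against 219 CPM for Hnrnpd and 663 against 660 CPM for Hnrnpu. The share of all genes with this pattern was not counted. The direct comparison of 135 with 45 min, which was added after the values had been seen, called 0 members, and 0% of all genes higher and 0% lower. Log2 fold changes were −2.17 for Hnrnpa0 (adjusted p = 0.165, edgeR), −1.53 for Hnrnpd (adjusted p = 0.174) and −1.43 for Hnrnpu (adjusted p = 0.157). Before adjustment 8 members were lower at p under 0.05 and 0 higher, where 823 of all 12731 genes were lower and 658 higher. The DESeq2 Wald test called Hnrnpa0, Hnrnpd and Hnrnpu, where it called 399 of all genes.

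The change at 45 min of HS ran with the base composition of the transcripts. Over the 36 genes, Spearman's rho between GC content and log2 fold change was 0.68 at 45 min of HS and 0.25 at 135 min, against 0.55 and 0.39 over the 12391 genes with a GC value. The points share libraries and depth, so no p is given. Hnrnpa0 had 55.38% GC, Sfrs5 44.58% and Sfrs6 42.84%, against a median of 45.2% over the members and 49.7% over all genes. Under tunicamycin the correlation over the members was 0.17 at 45 min, 0.45 at 135 min and 0.03 at 405 min, against 0.06, 0.35 and 0.12 over all genes. The part of this relation in the changes was not tested beyond the offset for GC content.

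**Figure D3:**
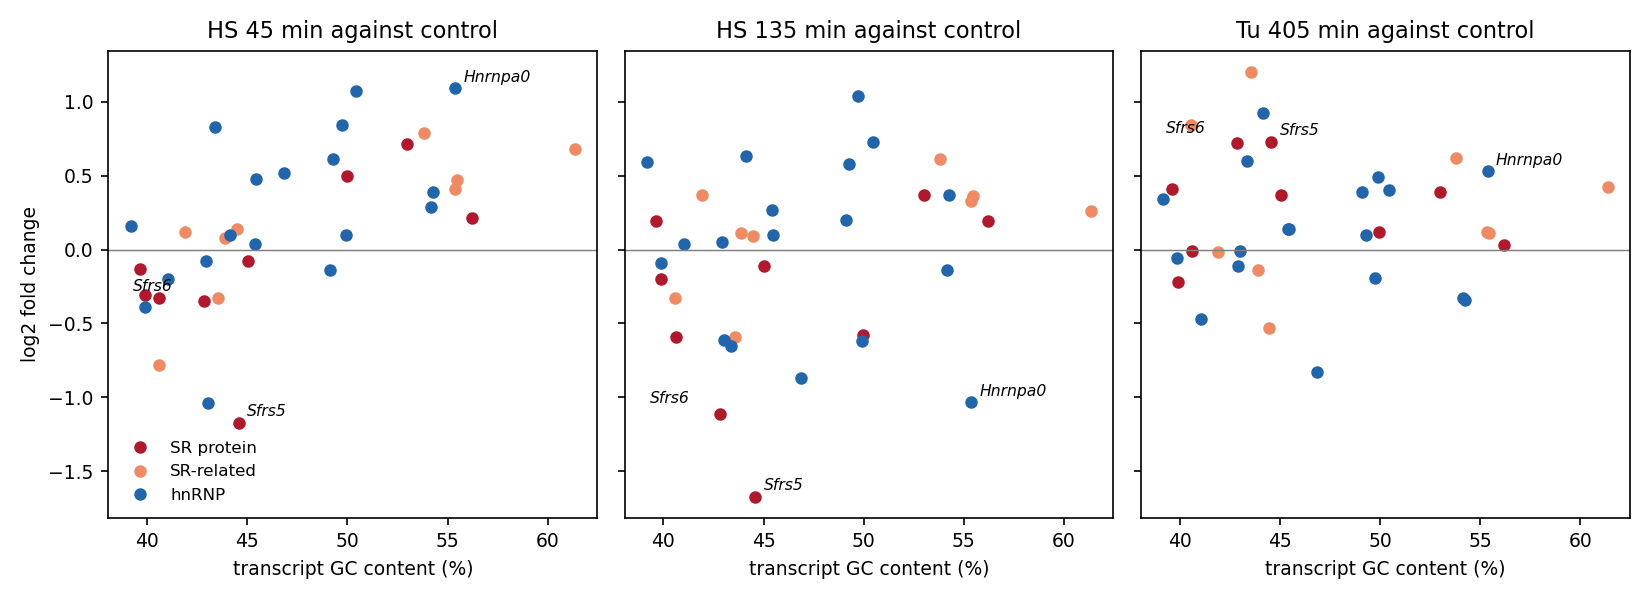
Log2 fold change against the control (vertical axis) and transcript GC content in percent (horizontal axis) of the 36 genes at 45 min of HS, 135 min of HS and 405 min of tunicamycin, coloured by class. The points climb with GC content at 45 min of HS (rho = 0.68) and show little trend at 405 min of tunicamycin (rho = 0.03).

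At 405 min of tunicamycin, 8 of the 36 genes rose and 2 fell. Over all genes, 23.3% were called higher and 23.5% lower, so the count higher was near the background and the count lower was below it. The median log2 fold change of the 36 was 0.13, against −0.01 over all genes. Of the 9 SR proteins, 3 rose and 0 fell, with a median of 0.37. Of the 9 SR-related genes, 3 rose and 1 fell, and of the 18 hnRNPs, 2 rose and 1 fell.

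The SR proteins that rose were Sfrs5, Sfrs6 and Sfrs11. Sfrs5 had 237, 256 and 245 CPM, each above every control, with a log2 fold change of 0.73 (SE 0.149, adjusted p = 0.00474, edgeR). The call held with each of the 6 libraries left out in turn, from 0.60 to 0.80. Sfrs6 had 244, 299 and 293 CPM against 111, 204 and 202 CPM, with a log2 fold change of 0.72 (adjusted p = 0.0315), and the call was lost without Tu 405 min replicate 1, 2 or 3 (0.78, 0.67 and 0.68, adjusted p = 0.0634, 0.101 and 0.0938). Sfrs11 had 141, 158 and 149 CPM against 105, 122 and 125 CPM. Its rise of 0.37 (adjusted p = 0.0343) was the smallest, and it was called in 1 of the 6 fits that left out a library, the one without control replicate 1 (adjusted p up to 0.138 in the others).

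Of the SR-related genes, Sfrs17b, Sfrs12ip1 and Sfrs15 rose. Sfrs17b had the lowest level and the largest log2 fold change of the 36. It had 0.753, 1.37 and 1.65 CPM in the controls and 3.17, 2.79 and 2.63 CPM at 405 min, a log2 fold change of 1.20 (SE 0.273, adjusted p = 0.0078, edgeR). Sfrs12ip1, whose protein binds the SR-related protein encoded by Sfrs12, had 7.63, 11.6 and 13.3 CPM in the controls and 19.2, 19.8 and 18.2 CPM, with a log2 fold change of 0.84 (adjusted p = 0.00998). Sfrs15 (Scaf4), whose protein binds the tail of RNA polymerase II and restrains early polyadenylation, had 90, 81.7 and 70.8 CPM in the controls and 117, 130 and 122 CPM, with a log2 fold change of 0.62 (adjusted p = 0.00547). These 3 calls held with each library left out in turn, and Sfrs12ip1 was not called with all 6 groups in 1 fit (adjusted p = 0.0932).

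Sfrs15 lay above the highest control in all 15 stressed libraries, at 97.3 to 170 CPM. Its log2 fold change was 0.79 at 45 min of HS, 0.61 at 135 min, 0.45 at 45 min of tunicamycin and 0.63 at 135 min, and none of these 4 passed the threshold (adjusted p = 0.227, 0.12, 0.0864 and 0.158, edgeR). All 5 comparisons share the same control libraries, and the share of all genes lying above every control in this way was not counted.

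Among the hnRNPs, Hnrnph3 and Hnrnpd rose and Hnrnpu fell at 405 min. Hnrnph3, of the F/H group that binds runs of guanines, had 10.1, 8.62 and 9.1 CPM in the controls and 14.9, 20.7 and 16.4 CPM, with a log2 fold change of 0.92 (SE 0.167, adjusted p = 0.00277, edgeR). Hnrnpd had 224, 391 and 270 CPM, all above the highest control at 219 CPM, with a log2 fold change of 0.60 (adjusted p = 0.0439). That call was lost in 4 of 6 fits: without control replicate 2 (0.66, adjusted p = 0.0619), control replicate 3 (0.58, 0.103), Tu 405 min replicate 2 (0.34, 0.167) or Tu 405 min replicate 3 (0.65, 0.0789). Hnrnpu had 311, 369 and 313 CPM against 488, 660 and 642 CPM, with a log2 fold change of −0.83 (SE 0.156, adjusted p = 0.00332). Its level at 405 min of tunicamycin was close to that at 135 min of HS.

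The other member that fell was Sfrs2ip (Scaf11), an SR-related gene. It had 124, 192 and 180 CPM in the controls and 116, 111 and 112 CPM at 405 min, with a log2 fold change of −0.53 (adjusted p = 0.0315, edgeR). The call was kept in 1 of the 6 fits that left out a library, the one without control replicate 1 (−0.69), and in the other 5 the adjusted p lay between 0.0729 and 0.103. Hnrnpa0 had 220, 437 and 315 CPM, 1 of them below all controls, and a log2 fold change of 0.53 (adjusted p = 0.0853). Without control replicate 1, 17 members were called, 12 higher and 5 lower, where 31.6% of all genes were called higher and 30.5% lower. With all 6 groups in 1 fit, Sfrs11 (adjusted p = 0.0707) and Hnrnpd (0.13) were not called.

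**Figure D4:**
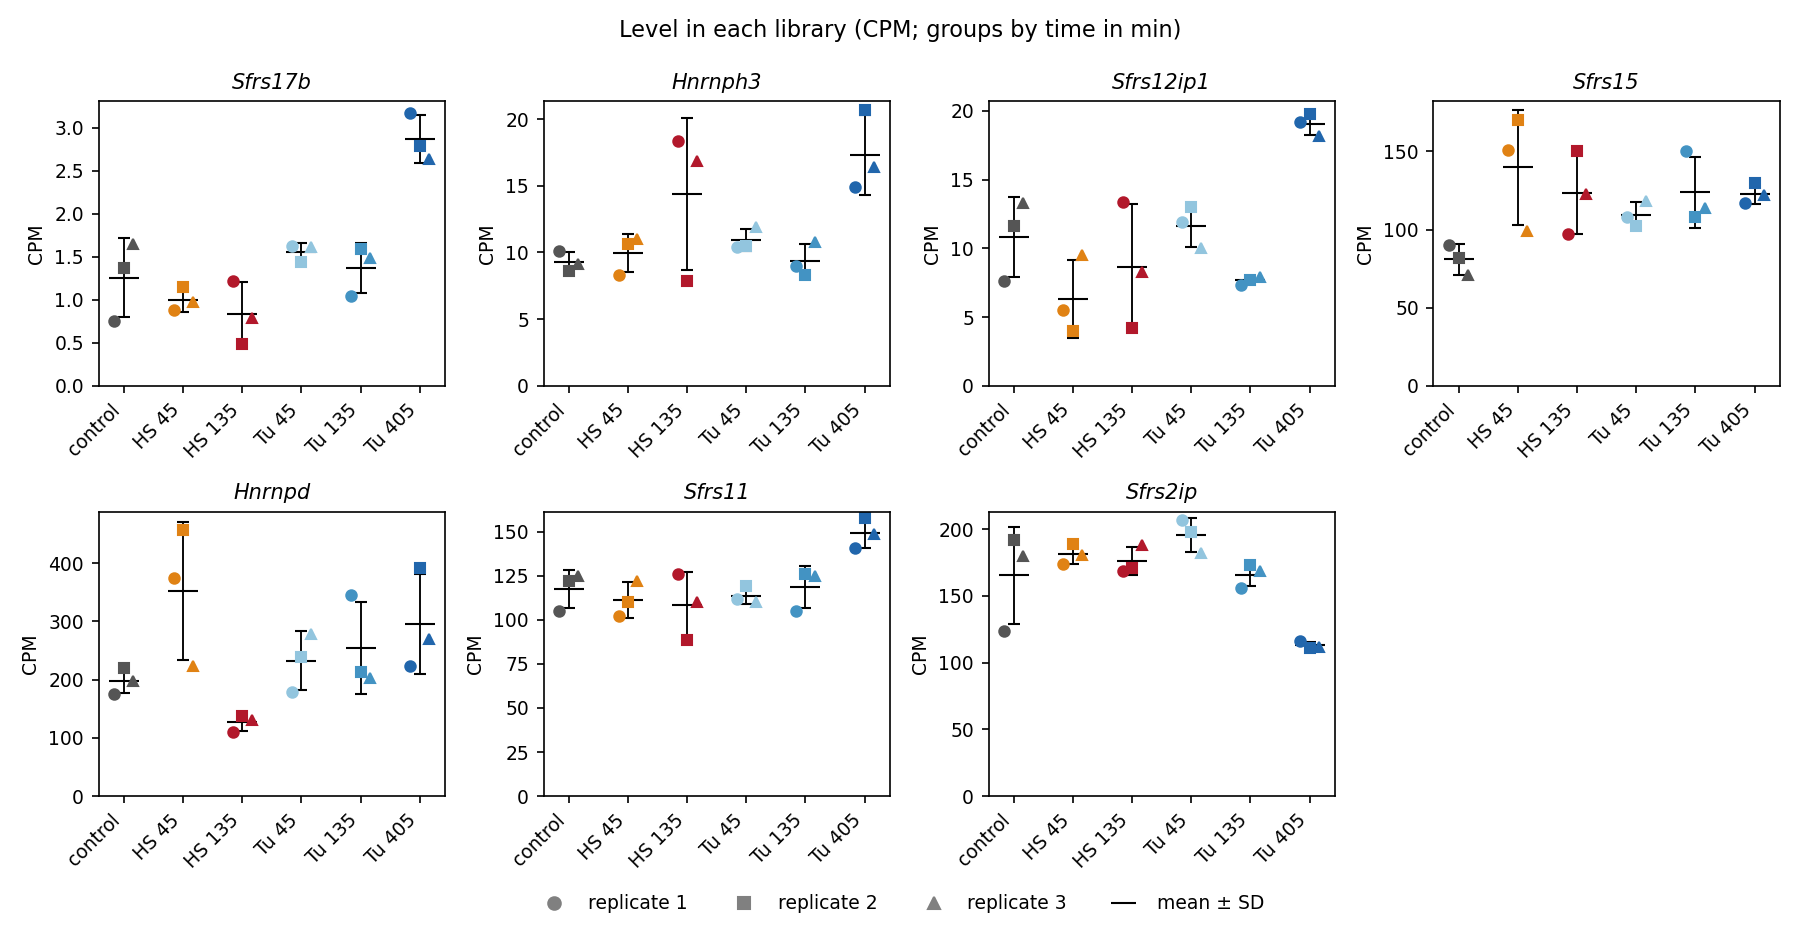
CPM (linear axis from 0) in each of the 18 libraries, by group and replicate with the mean and SD of each group, for the 7 further genes called at 405 min of tunicamycin. In the first 6 panels the 405 min libraries lie above all 3 controls, and for Sfrs2ip they lie at 111 to 116 CPM against 124 to 192 CPM.

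The earlier times of tunicamycin gave 0 member calls. At 45 min, 4.01% of all genes were called higher and 2.17% lower, and 0 of the 36 members in either direction. Before adjustment, 4 members were higher at p under 0.05 (Sfrs14, Sfrs15, Sfrs16 and Sfrs18) and 2 were lower (Sfrs2 and Sfrs7). Of all 12731 genes, 1791 were higher and 1469 lower by the same rule. The DESeq2 Wald test also called 0, where it called 1836 of all genes. Without control replicate 1, 7 members were called, 2 higher and 5 lower, where 10.9% of all genes were called higher and 8.7% lower. All 9 SR-related genes had a positive log2 fold change at 45 min, with a median of 0.33 and a range of 0.07 to 0.46. Of all 12731 genes 6317 were positive, as were 14 of 17 SR-related proteins outside the members (median 0.20). At 135 min, 0.126% of all genes were called higher and 0.00785% lower by edgeR, and 0 members. The DESeq2 Wald test called 612 of all genes and 0 members. Before adjustment 3 members were higher (Sfrs15, Sfrs16 and Sfrs18) and 3 lower (Sfrs1, Sfrs7 and Sfrs9), against 1288 higher and 1081 lower of all 12731 genes. Sfrs9 had the largest absolute log2 fold change at 135 min, −0.71 (adjusted p = 0.155). Sfrs5 had a log2 fold change of 0.25 at 45 min (adjusted p = 0.4).

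**Figure D5:**
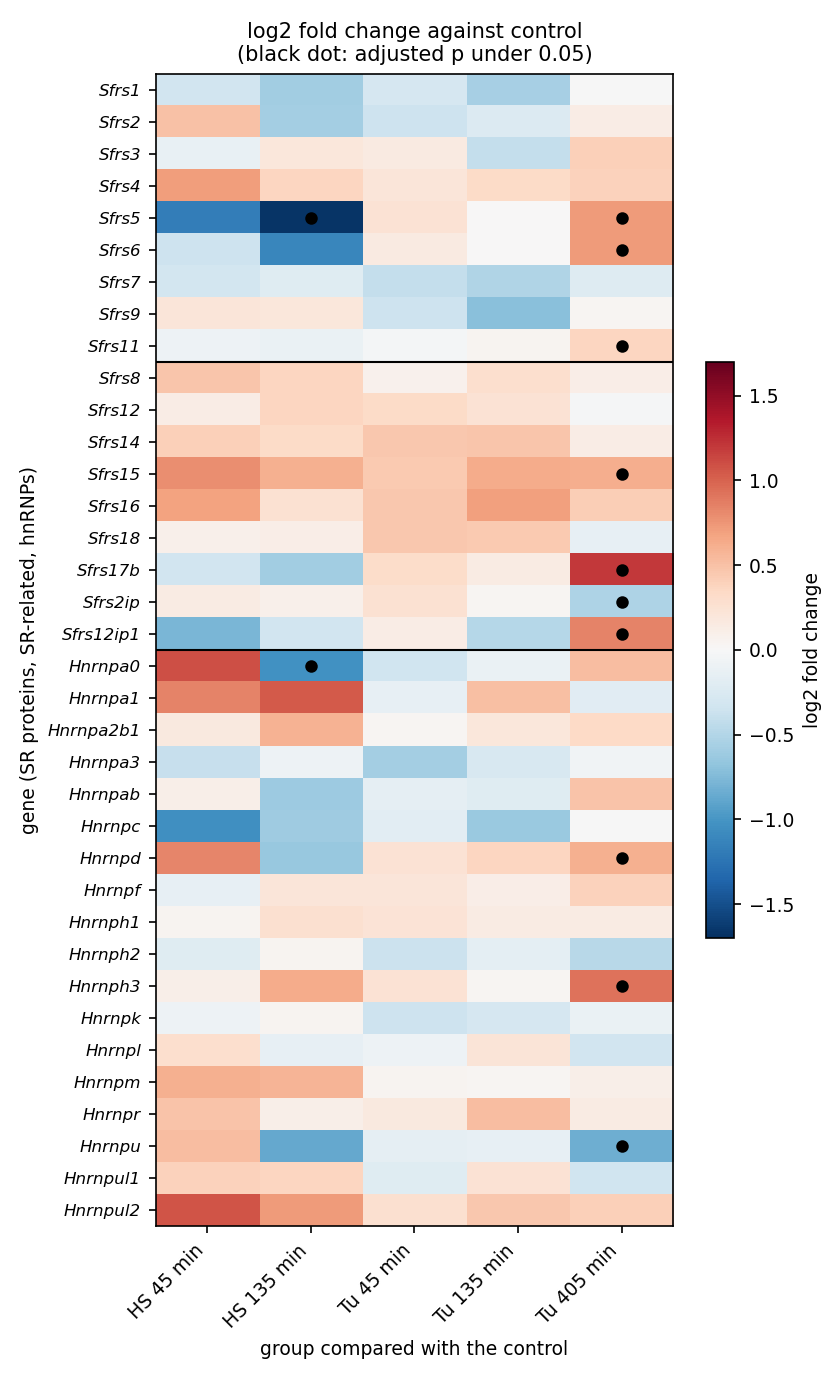
Log2 fold change against the control of the 36 genes (rows, by class) in the 5 stressed groups (columns), on a colour scale from −1.7 (blue) to 1.7 (red), with a black dot where the adjusted p is under 0.05. The dots at 135 min of HS mark Sfrs5 and Hnrnpa0, and 10 dots stand at 405 min of tunicamycin.

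HS and tunicamycin were then compared directly at the times they share. At 45 min, Sfrs5 was called lower under HS and was the only member called in the comparison. Over all genes 0.0628% were called higher and 0.141% lower. The heated libraries had 60.1, 65.5 and 75.4 CPM and the tunicamycin libraries 154, 174 and 203 CPM. The log2 fold change was −1.40 (SE 0.167, adjusted p = 0.0455, edgeR), a 2.64-fold difference. The call was close to the threshold: leaving out any library other than HS 45 min replicate 3 took the adjusted p to between 0.167 and 0.393, with log2 fold changes of −1.48 to −1.33. The offset for GC content gave −0.83 (adjusted p = 0.113). Without HS 45 min replicate 3, 21 members were called, 15 higher and 6 lower, where 26.8% of all genes were called higher and 28.8% lower.

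At 135 min, Sfrs5 and Sfrs6 were called lower under HS than under tunicamycin, and 0 members higher. Over all genes 1.3% were called higher and 0.817% lower. Sfrs5 had 43.4, 50.9 and 47.6 CPM under HS and 132, 138 and 176 CPM under tunicamycin, a log2 fold change of −1.68 (SE 0.190, adjusted p = 0.0184, edgeR). Sfrs6 had 100, 63.2 and 76.8 CPM under HS and 164, 177 and 172 CPM under tunicamycin, a log2 fold change of −1.12 (SE 0.210, adjusted p = 0.0487). The groups did not overlap for either gene. The Sfrs5 call was lost without HS 135 min replicate 3 or without Tu 135 min replicate 1, 2 or 3 (adjusted p = 0.144, 0.0638, 0.157 and 0.135, log2 fold changes −1.76 to −1.54). The Sfrs6 call was kept in 1 of 6 such fits, without HS 135 min replicate 1, and the adjusted p in the others went from 0.0809 to 0.272. With the offset for GC content the values were −1.38 for Sfrs5 (adjusted p = 0.0528) and −0.90 for Sfrs6 (adjusted p = 0.0555). Hnrnpa0 had a log2 fold change of −0.93 between the stresses at 135 min (adjusted p = 0.268), with 344, 180 and 102 CPM under tunicamycin.

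Of the 36 members, 11 were called in at least 1 of the 5 comparisons with the control and 25 in none. Over all genes tested, 51.3% were called in at least 1 of the 5. The 25 were the SR proteins Sfrs1, Sfrs2, Sfrs3, Sfrs4, Sfrs7 and Sfrs9, the SR-related genes Sfrs8, Sfrs12, Sfrs14, Sfrs16 and Sfrs18, and the hnRNPs Hnrnpa1, Hnrnpa2b1, Hnrnpa3, Hnrnpab, Hnrnpc, Hnrnpf, Hnrnph1, Hnrnph2, Hnrnpk, Hnrnpl, Hnrnpm, Hnrnpr, Hnrnpul1 and Hnrnpul2. Some of them had groups that did not overlap, and the share of all genes with such groups was not counted. Hnrnpul2, a relative of Hnrnpu, had 117, 188 and 176 CPM in the controls and lay above all of these in the 6 heated libraries, at 354, 425 and 230 CPM after 45 min and 201, 320 and 277 CPM after 135 min. Sfrs2 had 321, 347 and 358 CPM in the controls and 162, 295 and 231 CPM at 135 min of HS, all lower (log2 fold change −0.58, adjusted p = 0.168, edgeR). Sfrs1, the founding SR protein, had 222, 318 and 294 CPM in the controls and 201, 154 and 201 CPM at 135 min of HS. Hnrnpa1, a repressor of exon inclusion, had 64.7, 32 and 29.9 CPM in the controls and 64.8, 107 and 88.9 CPM at 135 min of HS (log2 fold change 1.04, adjusted p = 0.0995, and 1.49 without control replicate 1, adjusted p = 0.0424). The lowest heated library of Hnrnpa1 barely exceeded its highest control, at 64.8 against 64.7 CPM. Sfrs9 had 50.8, 78.1 and 70.7 CPM in the controls and 43.3, 42.4 and 35 CPM at 135 min of tunicamycin, all lower.

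Sfrs5 was the only member called in both directions, lower at 135 min of HS and higher at 405 min of tunicamycin. Its rank by RPKM among the 36 genes was 13 in the controls, 22 and 25 at 45 and 135 min of HS, and 9 at 405 min of tunicamycin. The rank of Sfrs6 went from 19 in the controls to 25 and 28 under HS and 15 at 405 min of tunicamycin.

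Other genes of the splicing machinery were counted in lists set beside the members. These counts are to be read against the shares of all genes called, which in the upward and downward direction came to 4.75% and 2.64% after 135 min of HS, 4.01% and 2.17% after 45 min of tunicamycin, and 23.3% and 23.5% after 405 min. The kinases of SR proteins gave 0 calls of 8 tested under HS at either time. Clk1 had 17.1, 23.5 and 27.5 CPM in the controls and 4.94, 4.4 and 32.6 CPM at 45 min of HS, so the third heated library was above and the others below. Clk4, a close relative, had 14.2, 19.4 and 20.7 CPM in the controls and 11.3, 5.34 and 26.4 CPM. Srpk1, a cytoplasmic SR kinase, had means of 103 CPM in the controls and 85.7 and 86.3 CPM at 45 and 135 min of HS. At 405 min of tunicamycin 2 of the 8 rose and 1 fell: Clk2 by 0.49 (adjusted p = 0.0119, edgeR) and Clk3 by 0.37 (0.0267) on the log2 scale, and Dyrk1a, at −1.91 (0.0189). With 1 library left out, Clk2 lost its call in 3 of 6 fits (adjusted p up to 0.0628), Clk3 in 4 (up to 0.127) and Dyrk1a in 2 (up to 0.0731). With the offset for GC content Clk3 was at 0.16 (adjusted p = 0.278). Dyrk1a had 319, 75.8 and 91.2 CPM in the controls and 58.2, 34 and 35.5 CPM at 405 min, and without control replicate 1 its log2 fold change was −0.94 (adjusted p = 0.00333). Of 3 import receptors, which carry SR proteins and hnRNPs into the nucleus, Tnpo1 fell at 405 min of tunicamycin (−0.52, adjusted p = 0.0211), a call lost in 4 of 6 such fits (up to 0.0966). Tnpo3, the receptor of SR proteins, had 180, 207 and 188 CPM in the controls and 60.2, 70.4 and 178 CPM at 45 min of HS (−0.89, adjusted p = 0.265, and −1.55 without replicate 3, adjusted p = 0.00138).

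Of 17 further SR-related proteins, 0 were called under HS, and 4 rose and 1 fell at 405 min of tunicamycin. Rbm39, a splicing coactivator, had a log2 fold change of 1.31 (adjusted p = 0.0103, edgeR) and Pnn, a nuclear speckle protein, of 0.70 (0.00928). Son, which organises nuclear speckles, fell by 1.08 (0.000277). Tra2b, an SR-like splicing activator, had means of 180 CPM in the controls, 240 CPM at 135 min of HS and 232 CPM at 405 min of tunicamycin, and was not called. Thrap3 was lower under HS than under tunicamycin at 135 min (−1.07, adjusted p = 0.0383), a call lost in 5 of 6 fits that left out a library (adjusted p up to 0.221).

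Of 23 hnRNP-like proteins under other names, 1 rose at 135 min of HS, Fubp1, with a log2 fold change of 1.14 (adjusted p = 0.046, edgeR), a call lost in 4 of 6 fits that left out a library (adjusted p up to 0.188). At 405 min of tunicamycin 4 rose and 3 fell, among them Taf15 (1.40, adjusted p = 0.00294), Pcbp3 (0.99, 0.000755) and Rod1 (−1.26, 0.000403). Cirbp, a cold-induced RNA-binding protein, rose at 45 min of tunicamycin, from 14.7, 15.9 and 16.1 CPM to 27.7, 32.7 and 35.9 CPM (1.06, adjusted p = 0.00958), and at 405 min by 0.59 (0.0121). The call at 45 min was lost without control replicate 2, control replicate 3 or Tu 45 min replicate 2 (adjusted p = 0.0557, 0.0562 and 0.082), and that at 405 min without Tu 405 min replicate 2 (0.0652). At 135 min of HS Cirbp had 6.6, 13 and 9.83 CPM, below every control, with a log2 fold change of −0.67 (adjusted p = 0.17). Rbm3, the other cold-induced protein of this kind, had 458 CPM on average in the controls and was called in 0 of the 5 comparisons.

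In the core of the spliceosome, 4 of 16 U2AF and U2 genes rose and 2 fell at 405 min of tunicamycin, with Sf3a2 (1.38, adjusted p = 0.000473, edgeR), U2af1l4 (0.84, 0.00196) and Sf3b3 (−0.87, 0.00106) the smallest in p. Phf5a, a small U2 subunit, had 90.1, 90 and 80.4 CPM in the controls. It fell at 135 min of HS (49.5, 21 and 34 CPM, −1.32, adjusted p = 0.0451) and at 45 min of tunicamycin (55.4, 50.3 and 41.3 CPM, −0.81, adjusted p = 0.0276). These calls were lost in 4 and in 5 of 6 fits that left out a library (adjusted p up to 0.188 and 0.144). Of 17 Sm, LSm and U1 genes, 4 rose and 1 fell at 405 min of tunicamycin, led by Snrpa, a U1 subunit (1.97, adjusted p = 0.000152), with Snrpb (0.56, 0.0105) and, lower, Lsm6 (−1.26, 0.000236). The Snrpb call was lost without Tu 405 min replicate 2 (adjusted p = 0.0579) or replicate 3 (0.051). Snrpg, of the Sm ring, fell at 45 min of tunicamycin (−1.11, adjusted p = 0.0138, lost in 3 of 6 such fits, up to 0.082). Of 17 other splicing regulators, 2 rose and 5 fell at 405 min, with Mbnl2 (1.19, adjusted p = 0.000158) and Rbm10 (1.05, 0.000225) up and Brunol5 (−1.34, 0.00437) down. Esrp2, a regulator of epithelial splicing, was called higher at 135 min of HS (adjusted p = 0.0416). It had 0.0458 to 0.126 CPM in the controls, near the level of 3 reads, so no fold is given. With all 6 groups in 1 fit, several of the named list genes were not called: Snrpb (adjusted p = 0.455), Lsm6 (0.185), Sf3b3 (0.0913), Tnpo1 (0.11), Clk3 (0.0515) and Cirbp (0.0671) at 405 min of tunicamycin, and Phf5a (0.306) and Snrpg (0.313) at 45 min.

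The tables hold 4 genes of the same families under other symbols, which the naming rule leaves out, and 3 of them were tested. Fusip1, the gene now named Srsf10, whose protein is known as a splicing repressor that is dephosphorylated on heating, fell at 135 min of HS. It had 43.9, 63.3 and 58.9 CPM in the controls and 28.4, 28.1 and 31.5 CPM, with a log2 fold change of −0.92 (SE 0.217, adjusted p = 0.0452, edgeR). Without control replicate 2, control replicate 3 or HS 135 min replicate 3 it was −0.81, −0.87 and −0.97 (adjusted p = 0.205, 0.199 and 0.184), and with the offset for GC content it was −0.23 (adjusted p = 0.606). Hnrpdl and Hnrpll were called in 0 of the 5 comparisons with the control.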

How the data were processed

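Poly(A) RNA of 18 samples was sequenced by the authors on an Illumina instrument, aligned to mm9 and counted against RefSeq genes on the DNAnexus platform. The aligner, the counter and the strand setting are not given in the sources used here. The study's methods describe a pair of library kits without saying which library used which. The deposited values are an estimated count of reads per gene (17.7% to 23.2% of the low values were not whole), an RPKM value, a score (the RPKM centred and scaled within a library) and a signal (the RPKM divided by its root mean square), all made by the authors. The score and the signal were not used. The coordinates of 741 genes differed between files, but not those of the 36 genes described, and genes were joined by name.

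Groups came from the labels. Estimated counts were rounded, and each comparison of 3 with 3 libraries was fitted with edgeR 4.0.16 in R 4.3.3 (TMM normalization, quasi-likelihood test) over the 12731 genes that had 1 read or more in all 18 libraries. A gene was called where its p-value, adjusted by Benjamini-Hochberg over these genes, was under 0.05. The SE is the log2 fold change divided by the square root of the F statistic. CPM values were scaled by TMM over all 18 libraries. RPKM was used only to order genes. Replicates were compared by chi-square, and no pair was alike enough to be 1 library. The fit was tested on simulated counts, drawn with a fixed spread and without the shared axis of these libraries. That test cannot tell how the fit behaves with spread of the kind seen here.

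The members and gene lists were chosen with earlier results of these data known. Every member was accounted for, with values in every sample for those called. Of each other list, the counts and up to 3 genes with the smallest adjusted p were given, with 7 genes named whatever their values (Clk1, Clk4, Cirbp, Rbm3, Srpk1, Tra2b and Tnpo3). Genes of the families under other symbols and the comparison of 135 with 45 min of HS were added after the data had been seen. Promoters came from RefSeq on GRCm38.p6, another build than the counts. The GC content of a gene is that of its longest GENCODE protein-coding transcript, known for 19421 of 20207 genes (96.1%).

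The alternatives were DESeq2 size factors, no filter on low counts, the DESeq2 1.42.0 Wald test, all 6 groups in 1 fit, the replicate number as a block, an offset for GC content (lowess, span 0.3), both together, and leaving out each library. Replicate numbers come from the titles. Same-numbered libraries deviated together in every pair, with a correlation of at least 0.299, only between Tu 135 min and control, where the block called 0 members as the fit without it did. Counting error alone sets the level of 3 reads.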

Additional observations from a re-analysis of the deposited data

Results flagged for a closer look

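Sfrs5 was called different between the stresses at both times they share, by a direct edgeR test of HS against tunicamycin. The log2 fold change of HS against tunicamycin was −1.40 at 45 min (adjusted p = 0.0455) and −1.68 at 135 min (adjusted p = 0.0184, both by edgeR), and in both comparisons all 3 heated libraries lay below all 3 tunicamycin libraries. Sfrs6 was called different between the stresses at 135 min, with a log2 fold change of −1.12 (adjusted p = 0.0487, edgeR), again with all 3 heated libraries below. The calls of Sfrs5 at 45 min and of Sfrs6 were lost with DESeq2 size factors or with no filter on low counts. Each call was lost with the replicate block, with the offset for GC content, and in most fits that left out a library. The DESeq2 Wald test and all 6 groups in 1 fit kept them. Groups of 3 libraries are too small for the test of single outlying samples.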

How the results depend on the processing

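The counts of called members depended on the fit, as did those of all genes, given in parentheses. At 45 min of HS the DESeq2 Wald test called 1 member (441 genes) and all 6 groups in 1 fit called 3 (1345), in place of 0 (0). At 135 min of HS these called 5 (2133) and 6 (3243) in place of 2 (941), and the GC content offset called 4 (2432). At 405 min of tunicamycin the GC content offset with the replicate block called 16 (6629) in place of 10 (5960). For HS against tunicamycin at 45 min, 0 members were called in place of 1 (26) with DESeq2 size factors (21), no filter on low counts (20), the replicate block (0), the GC content offset (414), or both together (0), and 3 with the DESeq2 Wald test (1111) or with all 6 groups in 1 fit (1270). At 135 min, DESeq2 size factors (272) or no filter (284) called 1 in place of 2 (270), the DESeq2 Wald test (1256) or 1 fit of all groups (1771) called 5, and the replicate block, alone or with the GC content offset, called 0 (0). For 135 against 45 min of HS the DESeq2 Wald test called 3 (399) and all 6 groups in 1 fit called 4 (905), in place of 0 (0). Leaving out each library in turn gave 0 to 14 members at 45 min of HS, 0 to 6 at 135 min, 0 to 7 at 45 min of tunicamycin, 6 to 17 at 405 min, 0 to 21 for HS against tunicamycin at 45 min and 0 to 3 at 135 min. The fits without control replicate 2, control replicate 3 or HS 135 min replicate 3 called 11 to 15 of all genes, and those without control replicate 1, HS 135 min replicate 1 or HS 135 min replicate 2 called 542, 2467 and 1236, against 941 with all libraries. The cause was not tested.

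With the replicate block, 0 members were called at 135 min of HS, where the numbers did not pair the libraries (mean correlation of same-numbered deviations −0.159). The log2 fold changes of Sfrs5 and Hnrnpa0 there were −1.66 and −1.04, and 0 of all genes were called. At 405 min of tunicamycin (mean correlation −0.052) the block called 10 members, 9 higher and 1 lower. Of 69 fold changes of single genes recomputed under every alternative, 0 changed sign. At this depth the spread between libraries, not counting error, limits the precision of most members. For Sfrs17b, with 0.753 to 1.65 CPM in the controls, counting error may also matter.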
